A study of Mus musculus with 14 samples.

Results

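Genes of the interferon response and of MHC class I antigen presentation, 40 in all, were followed in MC-38, a mouse colon cancer cell line, across 14 RNA-sequencing libraries. The genes were taken by symbol. All were found among the 24411 gene symbols of the deposited tables, and all 40 passed the filter on low counts in every fit. Of the 40 genes, 28 belong to interferon reception, signalling and response: 2 receptor subunits, 5 transcription factors, 4 genes of RNA sensing, 15 antiviral effectors and 2 feedback inhibitors. The other 12 belong to the MHC class I pathway: 3 MHC class I chains, 4 genes of peptide transport, loading and trimming, and 5 of the immunoproteasome and its activator.

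The libraries formed 6 groups. NET cultures (n = 3) were MC-38 cells exposed to chromatin of NETs, short for neutrophil extracellular traps, which are webs of DNA and granule proteins cast out by neutrophils; the chromatin came from neutrophils in vitro. Control cultures (n = 3) were MC-38 cells with no treatment. The 4 tumour groups (n = 2 each) were GFP-expressing MC-38 cells sorted by flow cytometry from lung tumours on day 30. Their hosts were PAD-4 KO mice given laparotomy, PAD-4 KO mice without surgery, WT mice given laparotomy, and WT mice without surgery. Laparotomy, the opening of the abdomen, was done on days 0 and 10. PAD4 is the enzyme that citrullinates histones during NET release. The deletion was carried by the hosts, and the cancer cells were labelled WT in all 14 libraries. The labels give neither the dose and duration of NET exposure nor the age of the mice, how the PAD4 deletion was made, or whether animals were pooled. Nor do they tell whether each library had its own culture or animal. The p-values therefore refer to the spread among the libraries, part of which may be technical.

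Gene counts ran from 6.39 to 31.3 M per library, and the 40 genes ran from 3.63 to 2571 CPM (counts scaled to library size), so counting error was small for most of them. The colon epithelium markers Epcam, Krt8, Krt18, Cdh1, Vil1 and Cdx2 stayed at or below 0.984 CPM in control cultures and at or below 10.1 CPM in tumour cells. That is near absence for markers of colon epithelium. The colon origin of MC-38 is general knowledge of the line and was not taken from the labels. Padi4, the gene deleted in the KO hosts, is intact in the cancer cells and so does not check the host labels. It stood between 64.9 and 74.3 CPM in the 6 culture libraries. In the tumour libraries it was lower, at 29.9 and 29.7 CPM in WT laparotomy and between 2.05 and 7.25 CPM in the other 6. The sorted tumour cells also held RNA of host cell types in differing amounts. The 10 pan-leukocyte markers summed to 138 and 99.0 CPM in KO laparotomy libraries, 97.4 and 169 in KO control libraries, 94.4 and 66.6 in WT laparotomy libraries, and 132 and 990 in WT control libraries. WT control replicate 2 stood apart in these markers. In bulk samples such as these, fewer cells of a type and less RNA per cell cannot be told apart.

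Interferons signal through paired receptor chains at the cell surface. Type I interferons act on a DNA element called the interferon-stimulated response element (ISRE), to which STAT2 and IRF9 are brought, and interferon gamma acts on the gamma-activated site (GAS). The genes behind these elements encode antiviral proteins, RNA sensors, inhibitors that end the signal, and much of the MHC class I pathway. That pathway cuts cell proteins into peptides with the proteasome, pumps the peptides into the endoplasmic reticulum with the transporter TAP, and loads them onto class I molecules that are shown to CD8 T cells. Loss of class I presentation is known in tumours as a way to escape T cells.

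Promoters are shown for 5 of the genes because each holds the letters of such an element and because the 5 moved differently in the comparisons below. Each line holds the 250 bases before the transcription start in RefSeq (build GRCm38.p6), read 5′ to 3′ on the gene's strand, with matches in capitals to the ISRE letters (GAAA, any 2 bases, GAAA) or the GAS letters (TTCNNNGAA). Both strands were searched, so a match on the other strand appears as its reverse complement. Irf1 (chr11:53769764-53770013, plus strand) held a GAS match 90 to 82 bases before the start, and Psmb8 (chr17:34197945-34198194, plus strand) held one 97 to 89 bases before it. Irf1 has 2 promoters in RefSeq, and the one with a match is shown. The other (chr11:53770223-53770472, plus strand) held no match in its 250 bases. B2m (chr2:122147437-122147686, plus strand) held an ISRE match 139 to 130 bases before the start. Ifit1 (chr19:34640639-34640888, plus strand) held a pair of ISRE matches, 104 to 95 and 85 to 76 bases before the start. Isg15 (chr4:156200819-156201068, minus strand) held 3 overlapping ISRE matches between 78 and 57 bases before it.
Irf1: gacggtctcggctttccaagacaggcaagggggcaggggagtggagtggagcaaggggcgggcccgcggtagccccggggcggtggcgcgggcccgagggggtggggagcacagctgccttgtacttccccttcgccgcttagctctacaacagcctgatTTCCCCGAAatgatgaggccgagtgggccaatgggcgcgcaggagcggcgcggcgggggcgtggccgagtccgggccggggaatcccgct
Psmb8: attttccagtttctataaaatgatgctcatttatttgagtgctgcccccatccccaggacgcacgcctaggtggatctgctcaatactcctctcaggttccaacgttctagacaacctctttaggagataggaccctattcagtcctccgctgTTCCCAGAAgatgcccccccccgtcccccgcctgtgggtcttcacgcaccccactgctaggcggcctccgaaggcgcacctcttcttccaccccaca
B2m: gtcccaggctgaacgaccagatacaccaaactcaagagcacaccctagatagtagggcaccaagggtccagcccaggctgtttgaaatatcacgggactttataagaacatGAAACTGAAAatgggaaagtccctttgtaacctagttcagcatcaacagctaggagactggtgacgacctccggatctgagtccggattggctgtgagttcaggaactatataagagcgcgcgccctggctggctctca
Ifit1: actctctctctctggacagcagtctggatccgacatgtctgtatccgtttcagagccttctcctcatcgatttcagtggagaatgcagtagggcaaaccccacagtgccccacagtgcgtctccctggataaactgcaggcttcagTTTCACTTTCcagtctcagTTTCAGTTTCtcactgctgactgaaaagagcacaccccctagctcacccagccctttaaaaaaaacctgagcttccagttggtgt
Isg15: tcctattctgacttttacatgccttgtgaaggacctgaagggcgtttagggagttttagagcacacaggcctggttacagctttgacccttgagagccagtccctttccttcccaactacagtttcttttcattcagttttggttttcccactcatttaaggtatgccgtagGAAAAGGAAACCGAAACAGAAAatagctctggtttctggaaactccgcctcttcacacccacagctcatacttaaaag

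Across windows of 300 bases, from 250 before to 50 after the start, 32 of the 40 genes had a RefSeq promoter. An ISRE match was present in 14 of these 32 (43.8%), against 3.99% of all 27025 genes with a promoter. A GAS match was present in 5 of 32 (15.6%), against 9.55% of all genes. Among the antiviral effectors with a promoter, 7 of 11 (63.6%) held an ISRE match. A match describes letters only, and no match says only that these letters are not in this window.

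In control cultures B2m, the light chain of every class I molecule, was the most abundant of the set when levels were divided by gene length, at 1610 CPM per kilobase of exon. H2-K1, a class I heavy chain, at 636 and Bst2, a tether that holds budding viruses at the membrane, at 623 followed, and their libraries overlapped. Isg15, a ubiquitin-like protein, stood at 247, Tapbp, the loading factor tapasin, at 211, and H2-D1, the other heavy chain, at 192. At the other end stood Socs1, an inhibitor of cytokine receptor signalling, at 3.06 and Epsti1 at 1.84. Of the 39 neighbouring pairs in this order, 29 overlapped in their libraries and so did not differ beyond their spread. Counts of H2-D1, H2-K1 and other class I heavy chain genes are uncertain, because these genes share sequence and reads could be split between them. The 9 interferon ligand genes of the pathway list summed to between 1 and 22 counts in a culture library and between 0 and 57 counts in a tumour library, and none of them passed the filter in the culture or in the tumour fit.

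**Figure D1:**
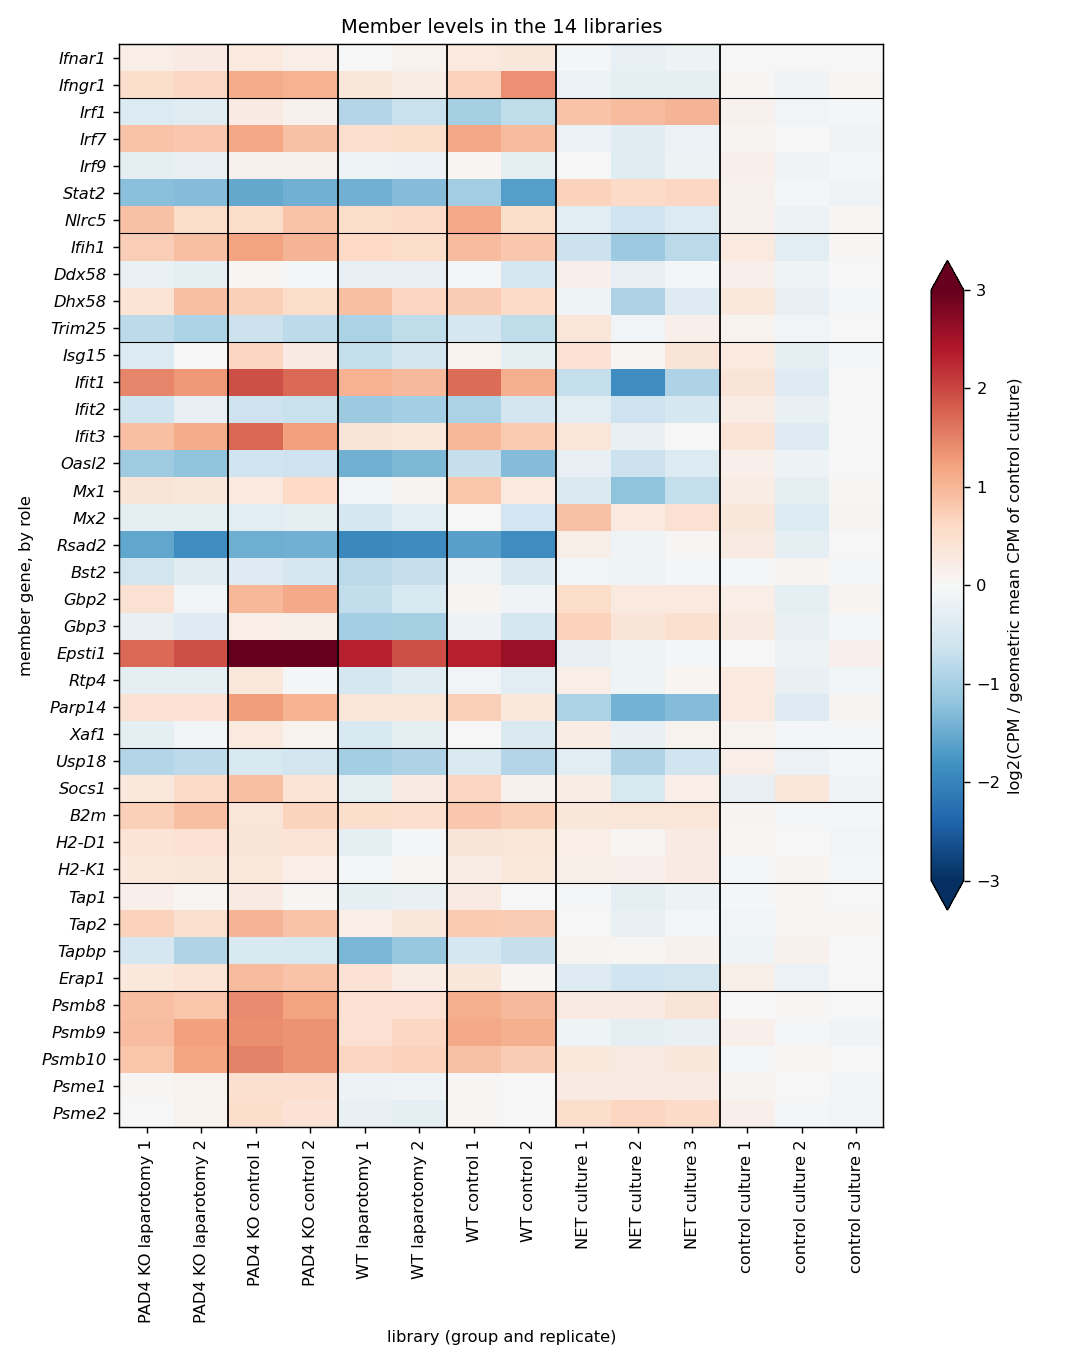
Level of each of the 40 genes in the 14 libraries, as log2 of CPM over the geometric mean of the control cultures; rows are genes grouped by role, columns are libraries grouped by host or culture, and colours beyond 3 are drawn at the end of the scale. Irf1 and Stat2 are red in the 3 NET cultures, Ifit1, Ifih1 and Parp14 are blue there, and Epsti1 is darkest in the 2 KO control libraries.

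NET chromatin was compared with no treatment in culture to ask what the traps change in the cancer cells. It split the set. The factor gene Irf1 rose 1.90-fold. Of the 12 class I genes 6 rose and 2 fell, of the 4 RNA-sensing genes 2 fell, and of the 15 antiviral effectors 3 rose and 5 fell. By edgeR's quasi-likelihood test with Benjamini-Hochberg adjustment over 11753 genes and a threshold of 0.05, 11 of the 40 genes were higher and 13 lower in NET cultures, and 16 did not pass. Of all genes tested, 26.3% were higher and 27.8% lower (54.1% in either direction), so the share of the set that moved was close to that of all genes. The median log2 fold change was -0.03 for the set and 0.00 for all genes.

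Among the receptors, Ifngr1, the ligand-binding chain of the interferon gamma receptor, fell by 0.27 on the log2 scale (adjusted p = 0.0171). Ifnar1, a chain of the type I receptor, stood at 68.6, 60.1 and 63.7 CPM in NET cultures, against 71.0, 71.1 and 70.5 CPM in control cultures. It did not pass (log2 fold change -0.16 ± 0.07, SE, adjusted p = 0.0829).

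Transcription factors moved in both directions. Irf1, a factor that interferon gamma induces and that itself drives class I genes, had 491, 521 and 547 CPM in NET cultures, against 297, 254 and 263 CPM in control cultures. All 3 NET libraries lay above all 3 control libraries. Its mean was 519.8 ± 28.1 CPM in NET cultures and 271 ± 22.6 CPM in control cultures (SD, n = 3 each). It rose by 0.93 ± 0.07 on the log2 scale (SE, adjusted p = 2.62e-08). Stat2, the STAT that carries type I signals, had 693, 634 and 658 CPM in NET cultures, against 468, 419 and 396 CPM in control cultures. Its groups did not overlap either, and it rose by 0.62 ± 0.07 (adjusted p = 1.73e-06). Nlrc5, the transactivator of class I genes, fell by 0.44 ± 0.09 on the log2 scale (adjusted p = 0.00032), and Irf7, the factor that amplifies type I interferon production, fell by 0.24 (adjusted p = 0.0216). Irf9, the DNA-binding partner of STAT2, had a log2 fold change of -0.18 and did not pass (adjusted p = 0.109).

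Of the 4 RNA-sensing genes, 2 fell and none rose. Ifih1, which encodes the long double-stranded RNA sensor MDA5, had 28.0, 20.5 and 25.1 CPM in NET cultures, against 54.0, 35.0 and 45.2 CPM in control cultures. It fell by 0.86 ± 0.14 (adjusted p = 0.000147), with no overlap between groups. Dhx58, a regulator of these sensors, fell by 0.44 ± 0.17 (adjusted p = 0.0386), and its groups overlapped. Ddx58, which encodes the sensor RIG-I, and Trim25, the ubiquitin ligase that activates it, had log2 fold changes of -0.06 and 0.15 and did not pass.

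The 15 effectors had 3 higher, 5 lower and 7 that did not pass. Parp14, a mono-ADP-ribosyltransferase, had 81.4, 59.6 and 64.5 CPM in NET cultures, against 194, 122 and 168 CPM in control cultures. Every NET library was below every control library, and the log2 fold change was -1.24 ± 0.18 (adjusted p = 0.00056). Ifit1, which binds foreign RNA ends, had 22, 10.0 and 19.0 CPM in NET cultures, against 47.3, 27.8 and 36.2 CPM in control cultures, and fell by 1.07 ± 0.25 (adjusted p = 0.00599). Mx1, a dynamin-like GTPase that blocks viruses in the nucleus, had 13.8, 7.98 and 11.2 CPM in NET cultures, against 21.8, 15.4 and 19.2 CPM in control cultures. It fell by 0.75 ± 0.16 (adjusted p = 0.000797), and neither Ifit1 nor Mx1 overlapped between groups.

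Its relative Mx2 moved the other way. Mx2 had 43.0, 28.9 and 32.5 CPM in NET cultures, against 29.5, 17.7 and 24.8 CPM in control cultures. These groups overlapped, and the rise was 0.53 ± 0.18 (adjusted p = 0.024). Gbp3 and Gbp2, guanylate-binding GTPases that act against intracellular pathogens, also rose. Gbp3 had 204, 164 and 174 CPM in NET cultures, against 150.5, 107 and 123 CPM in control cultures (0.50 ± 0.11, adjusted p = 0.00201). Gbp2 had 141, 117 and 118 CPM in NET cultures, against 110.2, 78.2 and 102 CPM in control cultures (0.36 ± 0.12, adjusted p = 0.0169). For both, the lowest NET library lay above the highest control library. Within the Ifit family, Ifit2 fell by 0.50 (adjusted p = 0.00112), while Ifit3 stood at 40.7, 27.2 and 31.8 CPM in NET cultures, against 42.1, 24.3 and 31.7 CPM in control cultures (log2 fold change 0.03, adjusted p = 0.91). Oasl2, an oligoadenylate synthetase-like gene, fell by 0.44 (adjusted p = 0.000783). Isg15 had a log2 fold change of 0.28 and did not pass (adjusted p = 0.0704), nor did Rsad2, which encodes viperin, at 0.01 (adjusted p = 0.956). Of the feedback inhibitors, Usp18, which removes ISG15 from proteins and blocks the type I receptor, had 112, 75.7 and 93.1 CPM in NET cultures, against 163, 125 and 139 CPM in control cultures. It fell by 0.61 ± 0.12 with no overlap (adjusted p = 0.0012), and Socs1 had a log2 fold change of 0.02 (adjusted p = 0.935).

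Class I genes had 6 higher, 2 lower and 4 that did not pass out of 12. Psme2, a subunit of the PA28 cap that opens the proteasome, had 239, 259.7 and 249.7 CPM in NET cultures, against 184, 160.2 and 158 CPM in control cultures. It rose by 0.56 ± 0.07 (adjusted p = 5.69e-06), and its partner Psme1 rose by 0.23 (adjusted p = 0.00511). B2m had 1765, 1766 and 1768 CPM in NET cultures, against 1464, 1356 and 1334 CPM in control cultures. Its rise of 0.34 ± 0.06 (adjusted p = 0.000265) left all 3 NET libraries above all 3 control libraries. The catalytic immunoproteasome subunits Psmb8 and Psmb10 each rose by 0.29 (adjusted p = 0.000815 and 0.00149), and H2-K1 rose by 0.18 (adjusted p = 0.0242). Psmb9, the third catalytic subunit, had a log2 fold change of -0.22 and did not pass (adjusted p = 0.0574), and H2-D1 had 0.15 (adjusted p = 0.0587). Erap1, the peptidase that trims peptides to fit class I molecules, had 74.4, 63.9 and 65.9 CPM in NET cultures, against 109, 86.1 and 96.9 CPM in control cultures. It fell by 0.53 ± 0.09 with no overlap (adjusted p = 0.000118). Tap1, a chain of the peptide transporter, fell by 0.17 (adjusted p = 0.0342), and its partner Tap2 and Tapbp had log2 fold changes of -0.11 and 0.06 and did not pass.

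Scaling bears on the higher calls. With library totals in place of trimmed-mean (TMM) factors, all genes together moved to a median of -0.16 on the log2 scale, and 5 members were higher and 18 lower, against 14% and 40.6% of all genes. Of the 12 class I genes 2 were then higher and 4 lower. Irf1, Stat2, Gbp3, B2m and Psme2 were higher under both scalings. The rises of Mx2, Gbp2, H2-K1, Psmb8, Psmb10 and Psme1 did not pass with library totals, and the log2 fold change of H2-D1 changed sign to -0.01. All 13 lower members were lower under both. Leaving out 1 culture library ended 7 of the calls in at least 1 of 6 fits. Tap1 was lost in 5 (adjusted p = 0.052 to 0.143), all but the fit without NET replicate 1. Dhx58 was lost in 4, without NET replicate 2 or 3 or control replicate 1 or 3 (0.0688 to 0.136), and H2-K1 in 4, without NET replicate 1 or 3 or control replicate 1 or 3 (0.0503 to 0.107). Irf7 was lost without NET replicate 2 or 3 or control replicate 1, Mx2 without NET replicate 1 or control replicate 2 or 3, Ifngr1 without NET replicate 3 or control replicate 3, and Gbp2 without NET replicate 2. These 7 calls were also lost when all 14 libraries were fitted together, and Mx2 with DESeq2 (adjusted p = 0.0967). RNA of leukocyte marker genes differed between the groups as well. The 10 pan-leukocyte markers summed to 14.9, 17.5 and 16.2 CPM in NET cultures, against 4.16, 4.12 and 4.11 CPM in control cultures. The 11 neutrophil markers summed to 8.76 to 11.4 CPM in NET cultures and 0.388 to 1.05 CPM in control cultures, and Retnlg and Ngp were at 0 in all 6 libraries. Most of the sum was Mmp8, a granule collagenase, with 6.0, 7.81 and 6.24 CPM in NET cultures, against 0, 0 and 0.0776 CPM in control cultures. S100a9 had 1.00, 1.19 and 1.52 CPM in NET cultures and 0 in each control culture. Lyz2, from the macrophage list, had 8.38, 8.32 and 10.1 CPM in NET cultures, against 1.86, 2.26 and 1.86 CPM in control cultures. C1qa of the same list was at 0 in all 6 libraries. Whether this RNA came from leukocyte material or from the cancer cells cannot be told apart here. Its part in the results was not tested.

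**Figure D2:**
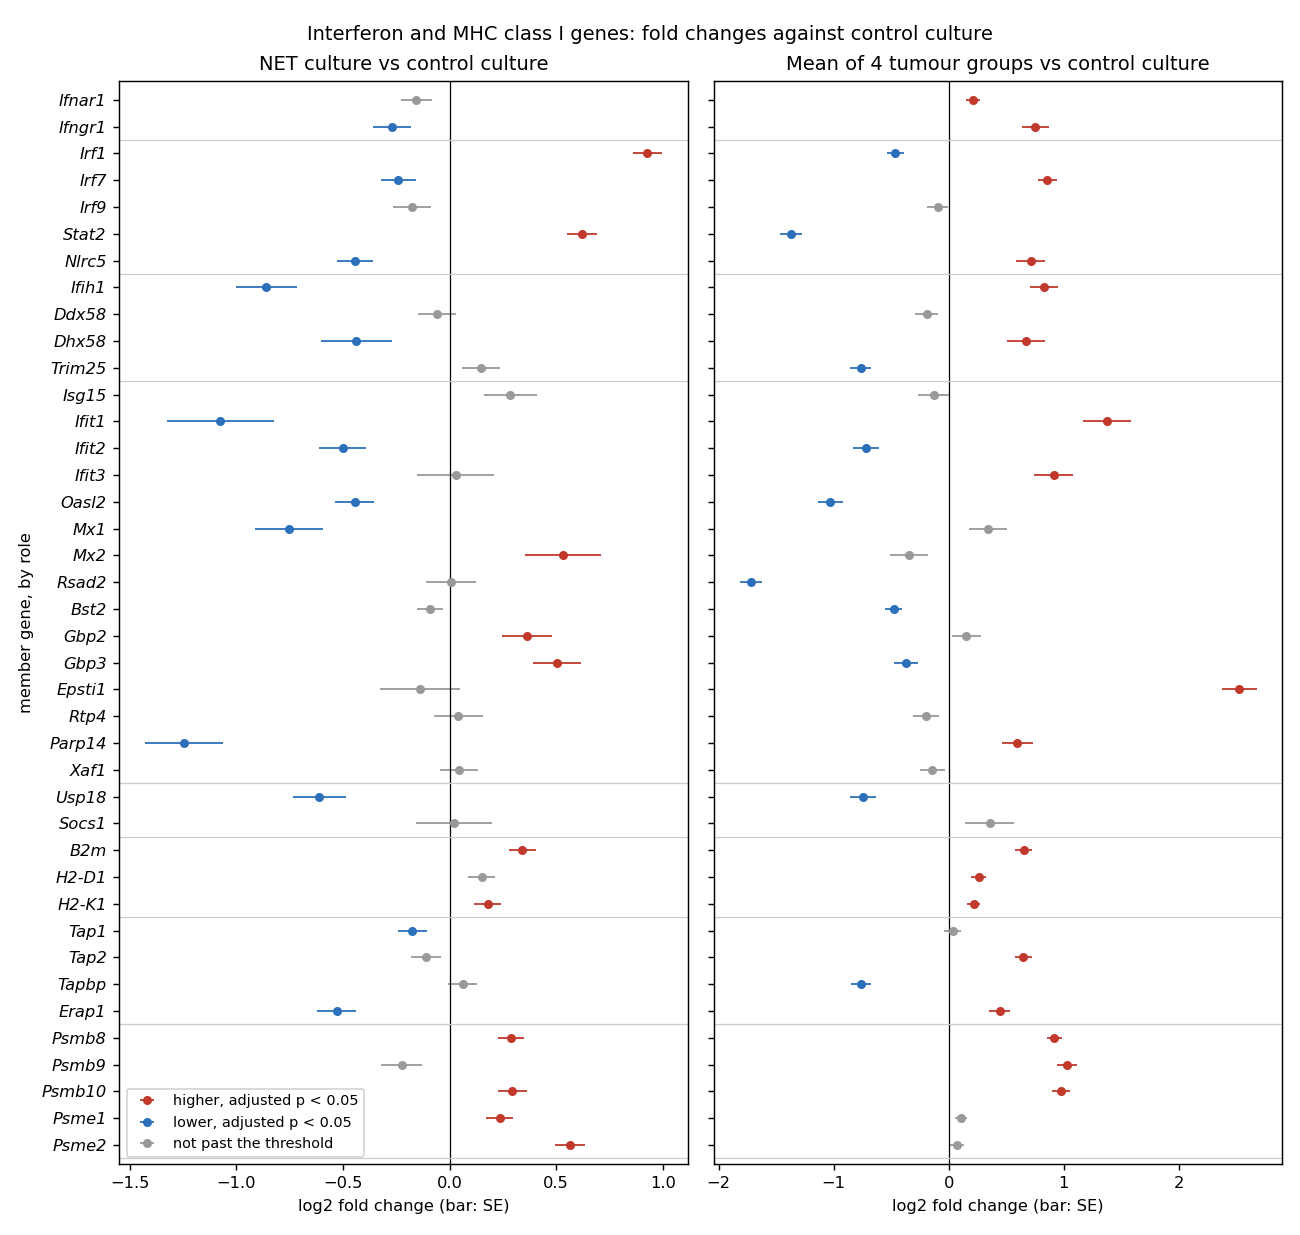
Log2 fold change of each gene with its standard error, in NET against control culture (left) and in the mean of the 4 tumour groups against control culture (right); red and blue mark adjusted p below 0.05. On the left Irf1 is the highest at 0.93 and Parp14 the lowest at -1.24; on the right Epsti1 is the highest at 2.52 and Rsad2 the lowest at -1.72.

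The interferon genes also varied together between libraries of the same culture group. Among the 3 NET cultures, replicate 1 was the highest for 25 of 28 interferon members and replicate 2 the lowest for 26 of 28, while over all genes at 1 CPM or more replicate 1 was the highest for 31% and replicate 2 the lowest for 47.9%. Among the 3 control cultures, replicate 1 was the highest for 23 of 28 and replicate 2 the lowest for 23 of 28, against 31.7% and 33.7% of all genes. For the 12 class I genes, replicate 2 was the lowest for 10 in NET cultures, and in control cultures replicate 1 was the highest for 6 and the lowest for 4. Ifit1 shows the size of this spread, since control replicate 2 at 27.8 CPM lay nearer to NET replicate 1 at 22 CPM than to control replicate 1 at 47.3 CPM.

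Of 95 other pathway genes tested, 21 were higher and 33 lower in NET cultures, against 26.3% and 27.8% of all genes. Other interferon-stimulated genes had 8 higher and 25 lower of 60, and other class I presentation genes 7 higher and none lower of 13. Calr, the chaperone calreticulin that holds class I chains during loading, had 2834, 3105 and 3046 CPM in NET cultures, against 1696, 1914 and 1603 CPM in control cultures (log2 fold change 0.78, adjusted p = 2.68e-07). Tapbpl, a tapasin-like peptide editor, rose by 0.96 (adjusted p = 1.65e-07), and Ube2l6, the conjugating enzyme for ISG15, by 0.59 (adjusted p = 6.06e-06). Lgals3bp fell by 0.72 (adjusted p = 9.53e-08), Ifi203 by 1.05 (adjusted p = 8.77e-07), and Ticam1, the adaptor TRIF of Toll-like receptor signalling, by 1.16 (adjusted p = 8.88e-07).

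In the tumour cells, the WT laparotomy group had the lowest mean level for 33 of the 40 genes, and the KO control group the highest mean for 26. Over all genes at 1 CPM or more, those shares were 27.1% and 26.2%. The effectors were lowest in WT laparotomy for 14 of 15 and the class I genes for 11 of 12. Without WT control replicate 2, a choice made after seeing the data, the counts were 34 and 25 of 40, against 26.2% and 27.7% of all genes. Single genes rarely passed a test here. The 8 tumour libraries were fitted together over 14615 genes, with 2 libraries per group and a biological coefficient of variation of 0.278, against 0.0633 in culture. The 4 pairwise comparisons below share groups with each other, so their values are given side by side and not as separate evidence.

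**Figure D3:**
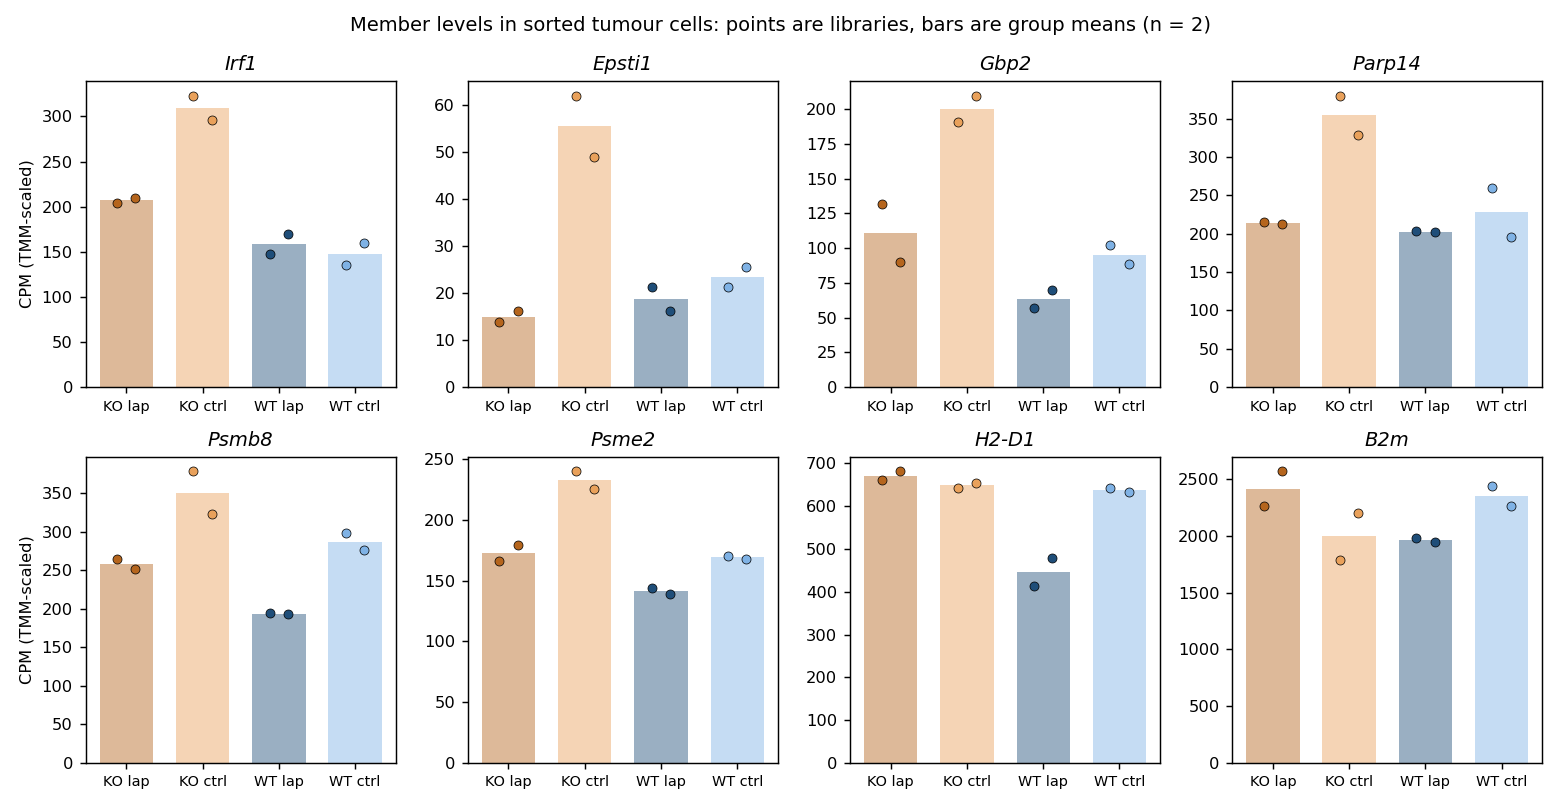
CPM of 8 genes in the 8 tumour libraries; points are libraries, bars are the means of 2, and each axis starts at 0. Irf1 and Epsti1 stand highest in the KO control group, at 309 and 55.5 CPM, and H2-D1 stands lowest in the WT laparotomy group, at 446 CPM.

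Laparotomy in WT hosts asks how surgery bears on the cancer cells in hosts that carry PAD4. Levels were lower after laparotomy for most of the set, but edgeR called 0 of the 40 genes at the threshold. Of all genes tested, 0.0342% were called lower and 0.0205% higher. At an unadjusted p below 0.05 there were 20 of 40, against 18.8% of all genes. DESeq2 called 11 lower, against 6.23% of all genes. The log2 fold change was above 0 for 3 of 40 (49.5% of all genes), with a median of -0.31, against -0.01 for all genes. Both laparotomy libraries were below both control libraries for 28 of 40 (27.8% of all genes), and above both for 0 of 40 (29.0% of all genes).

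H2-D1, a classical class I heavy chain, had 414 and 478 CPM in WT laparotomy libraries, against 642 and 633 CPM in WT control libraries. The difference on the log2 scale was -0.52 ± 0.10 (SE, adjusted p = 0.12). Psmb8 had 195 and 193 CPM in WT laparotomy libraries, against 298 and 276 CPM in WT control libraries (-0.57 ± 0.11, adjusted p = 0.123). Psmb9 had 45.4 and 50.9 CPM in WT laparotomy libraries, against 72.2 and 69.7 CPM in WT control libraries (-0.56 ± 0.13, adjusted p = 0.135). Gbp3 had 62.4 and 63.3 CPM in WT laparotomy libraries, against 114 and 86.7 CPM in WT control libraries (-0.67 ± 0.14, adjusted p = 0.126). In none of these 4 did the groups overlap. By role, both libraries were lower for 12 of 15 effectors, 3 of 3 class I chains, 3 of 4 genes of peptide transport, loading and trimming, and 5 of 5 immunoproteasome and activator genes. Irf1 did not share the direction, with 147 and 170.0 CPM in WT laparotomy libraries, against 136 and 159.7 CPM in WT control libraries.

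Markers of host cells moved with this comparison. The 12 monocyte and macrophage markers summed to 105 and 95.1 CPM in WT laparotomy libraries, against 357 and 1567 CPM in WT control libraries, with none at 0. Control cultures, which had no host, summed to 82.3 to 103 CPM for this list, with 6 to 10 markers at 0. Most of that was Cd68, at 91.2, 101 and 79.9 CPM, against 15.4 and 14.5 CPM in WT laparotomy libraries. The 7 MHC class II markers summed to 51.7 and 56.6 CPM in WT laparotomy libraries, against 136 and 644 CPM in WT control libraries. Control cultures reached 48.7 CPM for this list. Sums of this size are thus not a measure of host RNA alone. The 11 T and NK cell markers summed to 24.1 and 21.7 CPM in WT laparotomy libraries, against 5.94 and 104 CPM in WT control libraries. The 8 fibroblast markers summed to 4986 and 3662 CPM in WT laparotomy libraries, against 6396 and 5112 CPM in WT control libraries, and the 9 endothelial markers to 52.5 and 52.0 CPM in WT laparotomy libraries, against 123 and 506 CPM in WT control libraries. Control cultures summed to 144 to 151 CPM for the fibroblast list and 32.2 to 33.8 CPM for the endothelial list. The median log2 fold change of the 40 genes was -0.38 without WT control replicate 2 and -0.23 without WT control replicate 1. The part of these markers' cells in the members' values was not tested. Of 104 other pathway genes, none passed; the smallest p belonged to Lgals9 (log2 fold change -0.64, adjusted p = 0.0858) and Iigp1, an immunity-related GTPase (-0.99, adjusted p = 0.0885).

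Laparotomy in PAD4 KO hosts asks the same where the hosts lack the histone-citrullinating enzyme. Of the 40 genes 1 fell and none rose, against 0.178% of all genes lower and 0.342% higher. Epsti1, named for its induction by contact between epithelium and stroma, had 13.9 and 16.1 CPM in KO laparotomy libraries, against 62.0 and 49.0 CPM in KO control libraries. Its log2 fold change was -1.90 ± 0.21 (SE, adjusted p = 0.0211). The call was lost without KO control replicate 1 (adjusted p = 0.165), KO laparotomy replicate 1 (0.0544) or KO laparotomy replicate 2 (0.0718), where a lone library is assumed to vary like the other groups. DESeq2 called 11 members lower, against 2.34% of all genes.

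The log2 fold change was above 0 for 8 of 40 genes (49.3% of all genes), with a median of -0.32, against -0.01 for all genes. Both laparotomy libraries were lower for 27 of 40 (19.7% of all genes) and higher for 6 (22.8%). Parp14 had 216 and 213 CPM in KO laparotomy libraries, against 380.2 and 328 CPM in KO control libraries (-0.74 ± 0.14, adjusted p = 0.0816). Psme1 had 197 and 207 CPM in KO laparotomy libraries, against 271 and 275 CPM in KO control libraries (-0.45 ± 0.09, adjusted p = 0.088). Gbp2 had 132 and 90.0 CPM in KO laparotomy libraries, against 191 and 209.8 CPM in KO control libraries (-0.87 ± 0.18, adjusted p = 0.0913). The groups did not overlap for these 3 genes, none of which passed. The 5 immunoproteasome and activator genes were lower in both libraries, as in WT hosts, while the 3 class I chains were higher in both. Monocyte and macrophage markers summed to 442 and 277 CPM in KO laparotomy libraries, against 111 and 311 CPM in KO control libraries. Fibroblast markers summed to 6669 and 12078 CPM in KO laparotomy libraries, against 9640 and 5463 CPM in KO control libraries. Both sums overlapped between the groups. Of the other pathway genes none passed, and the smallest p belonged to Ifi47 (-0.66, adjusted p = 0.0816) and Gbp6 (-1.15, adjusted p = 0.0826), both interferon-inducible GTPases.

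The difference between the surgery effects, KO minus WT, was tested as an interaction. It called 0 of 40 genes in edgeR, against 0.677% of all genes, with 7 of 40 at an unadjusted p below 0.05 (19.2% of all genes). DESeq2 called 2 higher and 3 lower, against 5.07% and 2.85% of all genes. Epsti1 had the largest difference, -1.57 ± 0.29 (adjusted p = 0.0615), with a log2 fold change of -1.90 in KO hosts and -0.33 in WT hosts. Irf1 differed by -0.69 ± 0.18 (adjusted p = 0.112), with -0.60 in KO hosts and 0.10 in WT hosts, and Erap1 by -0.68 ± 0.19 (adjusted p = 0.121). H2-D1 differed by 0.55 ± 0.14 (adjusted p = 0.113), with 0.04 in KO hosts and -0.52 in WT hosts. B2m showed the same sign, with 0.26 in KO hosts and -0.26 in WT hosts (difference 0.52 ± 0.17, adjusted p = 0.168). Neither was past the threshold. Among other pathway genes Pdia3, which joins the peptide-loading complex, had a difference of 0.85 (adjusted p = 0.0786), and Ifitm2, a membrane protein that blocks virus entry, 0.68 (adjusted p = 0.0786).

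Host genotype without surgery compares KO control with WT control tumours. Of the 40 genes 1 rose and none fell, against 0.0547% of all genes higher and 0.0616% lower. Irf1 had 323 and 296 CPM in KO control libraries, against 136 and 159.7 CPM in WT control libraries. Its mean was 309 ± 19.3 CPM in KO control and 147.8 ± 16.9 CPM in WT control (SD, n = 2 each). It rose by 1.07 ± 0.13 on the log2 scale (SE, adjusted p = 0.0388). The call was lost without KO control replicate 1 (adjusted p = 0.254) and in a fit of the compared groups alone (0.287). DESeq2 called 9 members higher, against 2.18% of all genes.

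The effect was positive for 29 of 40 genes (47.8% of all genes), with a median of 0.24, against -0.02 for all genes, and both KO libraries were higher for 23 of 40 (22.1% of all genes) and lower for 1 (22.3%). Epsti1 had 62.0 and 49.0 CPM in KO control libraries, against 21.2 and 25.6 CPM in WT control libraries (1.24 ± 0.21, adjusted p = 0.0754). Gbp2 had 191 and 209.8 CPM in KO control libraries, against 102 and 88.5 CPM in WT control libraries (1.08 ± 0.18, adjusted p = 0.0796). Erap1 had 189 and 175 CPM in KO control libraries, against 123 and 101 CPM in WT control libraries (0.70 ± 0.13, adjusted p = 0.0956). None of these 3 genes passed, and none overlapped between groups. The 5 immunoproteasome and activator genes were higher in both KO libraries, as were 11 of 15 effectors, while B2m was lower in both. The median of the set was 0.14 without KO control replicate 1, 0.16 without WT control replicate 2 and 0.36 without WT control replicate 1. Monocyte and macrophage markers summed to 111 and 311 CPM in KO control libraries, against 357 and 1567 CPM in WT control libraries. The sums of fibroblast, pan-leukocyte and lung markers overlapped between the groups. Fibroblast markers summed to 9640 and 5463 CPM in KO control libraries, against 6396 and 5112 CPM in WT control libraries, and pan-leukocyte markers to 97.4 and 169 CPM in KO control libraries, against 132 and 990 CPM in WT control libraries. The 11 lung epithelial markers summed to 43.7 and 424 CPM in KO control libraries, against 144 and 810.1 CPM in WT control libraries. Of the other pathway genes none passed, and the smallest p belonged to Ifi47 (0.83, adjusted p = 0.0741) and Gbp6 (1.39, adjusted p = 0.0741).

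Host genotype with surgery compares KO laparotomy with WT laparotomy tumours. Levels were higher in KO hosts for most of the set, but edgeR called 0 of 40, against 0.0205% of all genes higher and 0.00% lower. At an unadjusted p below 0.05 there were 16 of 40, against 13.4% of all genes, and DESeq2 called 7 higher, against 2.46% of all genes. The effect was positive for 35 of 40 (51.1% of all genes), with a median of 0.29, against 0.01 for all genes. Both KO libraries were higher for 33 of 40 (27.2% of all genes) and lower for 2 (25.0%). All 12 class I genes had a positive fold change, and 11 of them did not overlap between groups.

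H2-D1 had 662 and 682 CPM in KO laparotomy libraries, against 414 and 478 CPM in WT laparotomy libraries (0.58 ± 0.10, adjusted p = 0.106). Gbp3 had 107 and 95.2 CPM in KO laparotomy libraries, against 62.4 and 63.3 CPM in WT laparotomy libraries (0.68 ± 0.14, adjusted p = 0.12). Psmb9 had 63.3 and 77.9 CPM in KO laparotomy libraries, against 45.4 and 50.9 CPM in WT laparotomy libraries (0.54 ± 0.13, adjusted p = 0.16). Gbp2 had 132 and 90.0 CPM in KO laparotomy libraries, against 57.1 and 69.7 CPM in WT laparotomy libraries (0.79 ± 0.18, adjusted p = 0.153). In all 4, the lower KO library lay above the higher WT library. The sums of macrophage, class II, fibroblast and endothelial markers were higher in the KO laparotomy libraries. Within the fibroblast list, Lum, Pdgfra and Pdgfrb overlapped between the groups. The sum of T and NK cell markers was lower in KO laparotomy libraries, at 3.72 and 14.6 CPM, against 24.1 and 21.7 CPM in WT laparotomy libraries. Most of the WT laparotomy sums was Cd8a, at 9.51 and 8.03 CPM, and Cd4, at 6.67 and 6.80 CPM. Gzma went the other way, at 0.531 and 0.531 CPM in KO laparotomy libraries, against 0.382 and 0.494 CPM in WT laparotomy libraries. Fibroblast markers summed to 6669 and 12078 CPM in KO laparotomy libraries, against 4986 and 3662 CPM in WT laparotomy libraries, and endothelial markers to 107 and 89.3 CPM in KO laparotomy libraries, against 52.5 and 52.0 CPM in WT laparotomy libraries. Monocyte and macrophage markers summed to 442 and 277 CPM in KO laparotomy libraries, against 105 and 95.1 CPM in WT laparotomy libraries, and class II markers to 212 and 116 CPM in KO laparotomy libraries, against 51.7 and 56.6 CPM in WT laparotomy libraries. The WT laparotomy sums for macrophages and class II were close to those of control cultures, which reached 103 and 48.7 CPM. The part of these markers' cells in the members' values was not tested here. Of the other pathway genes none passed, and the smallest p belonged to Iigp1 (1.26, adjusted p = 0.074) and Tgtp2, another interferon-inducible GTPase (0.93, adjusted p = 0.114).

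**Figure D4:**
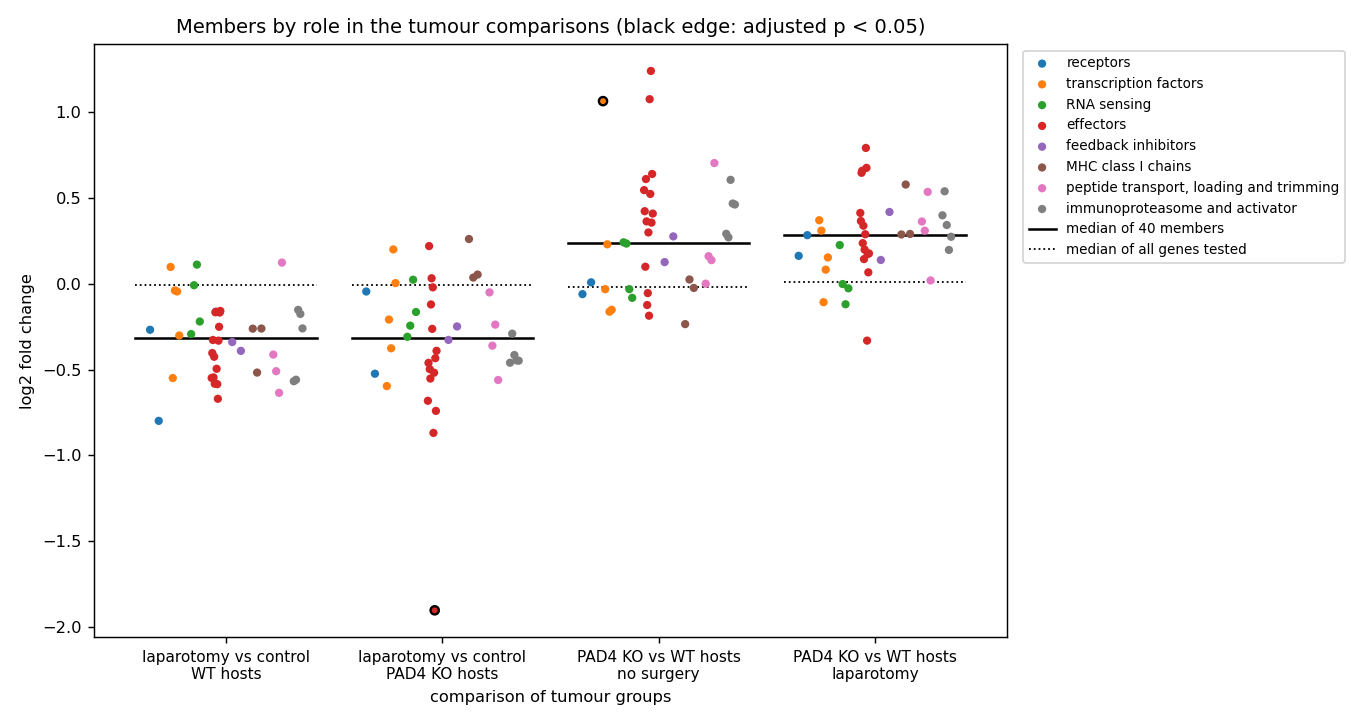
Log2 fold change of each of the 40 genes in the 4 tumour comparisons, coloured by role; solid lines are the medians of the set and dotted lines those of all genes tested. The medians of the set lie at -0.31 and -0.32 for laparotomy and at 0.24 and 0.29 for PAD4 KO hosts, and the points with a black edge are Epsti1 at -1.90 and Irf1 at 1.07.

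Tumour cells as a whole, the mean of the 4 groups, were set against control cultures in a fit of all 14 libraries (14421 genes). The class I pathway was mostly higher in tumours and the interferon genes were mixed. In all, 18 of 40 members were higher, 10 lower and 12 not past the threshold, against 38.6% of all genes higher and 34.7% lower (73.3% in either direction). The class I genes had 8 higher and 1 lower of 12, and the interferon genes 10 higher and 9 lower of 28. The comparison pools cultures with the more variable tumours, so its p-values may be too small. Sorting, host RNA and time also differ between tumour and culture and cannot be told apart from growth in the lung.

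Epsti1 ran from 13.9 to 62.0 CPM in the 8 tumour libraries, against 4.26, 3.80 and 4.73 CPM in control cultures, the largest difference of the set (2.52 ± 0.15, adjusted p = 4.37e-09). Ifit1 ran from 70.6 to 139 CPM in tumour libraries, against 47.3, 27.8 and 36.2 CPM in control cultures (1.38 ± 0.21, adjusted p = 8.37e-05). The catalytic immunoproteasome subunits rose together, Psmb9 by 1.02, Psmb10 by 0.98 and Psmb8 by 0.92, and for each of them every tumour library lay above every control culture. Psmb9 ran from 45.4 to 86.3 CPM in tumour libraries, against 36.5, 32.3 and 30.7 CPM in control cultures. Psmb10 ran from 118 to 212 CPM in tumour libraries, against 71.8, 77.9 and 75.9 CPM in control cultures. Psmb8 ran from 193 to 378 CPM in tumour libraries, against 140.1, 143 and 139 CPM in control cultures. Ifit3, whose human counterpart stabilises IFIT1, ran from 39.7 to 106 CPM in tumour libraries, against 42.1, 24.3 and 31.7 CPM in control cultures. It rose by 0.91 ± 0.17 (adjusted p = 0.00032), and its groups overlapped.

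Rsad2 fell most. It ran from 147 to 208 CPM in tumour libraries, against 678, 465 and 557 CPM in control cultures (-1.72 ± 0.10, adjusted p = 3.37e-09). Stat2 ran from 136 to 205 CPM in tumour libraries, against 468, 419 and 396 CPM in control cultures (-1.37 ± 0.09, adjusted p = 1.77e-08). Oasl2 ran from 239 to 427 CPM in tumour libraries, against 720.0, 579.5 and 639.6 CPM in control cultures, and fell by 1.03 (adjusted p = 2.12e-06). Every tumour library was below every control culture for Rsad2, Stat2 and Oasl2. Trim25 ran from 198 to 269 CPM in tumour libraries, against 410.3, 357 and 376 CPM in control cultures, and fell by 0.76 (adjusted p = 4.22e-06). Tapbp ran from 294 to 551 CPM in tumour libraries, against 698, 829 and 766 CPM in control cultures, and also fell by 0.76 (adjusted p = 2.19e-06). Usp18 ran from 69.9 to 105 CPM in tumour libraries, against 163, 125 and 139 CPM in control cultures, and fell by 0.75 (adjusted p = 4.7e-05). None of these 3 overlapped either. Tapbp, which bridges TAP and class I molecules, was the lower class I gene. Irf1 and Stat2, the factors that rose in NET cultures, were both lower in the mean of the 4 tumour groups than in control cultures. Irf1 was lower by 0.46 (adjusted p = 6.33e-05). The KO control group was the exception for Irf1, at 323 and 296 CPM, against 297, 254 and 263 CPM in control cultures. The other tumour libraries ran from 136 to 210 CPM. Both comparisons share the control cultures.

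Of 105 other pathway genes, 61 were higher and 20 lower in tumours, against 38.6% and 34.7% of all genes. Tmem173, which encodes the DNA sensor adaptor STING, ran from 126 to 220.4 CPM in tumour libraries, against 9.51, 11.9 and 12.5 CPM in control cultures (3.85 ± 0.14, adjusted p = 4.58e-11). Tgtp2 had a log2 fold change of 3.86 (adjusted p = 9.39e-10) and Sp110, a nuclear body protein, 1.91 (adjusted p = 2.69e-10). Oas3, an oligoadenylate synthetase, fell by 1.84 (adjusted p = 1.24e-09), Ddx60 by 1.52 (adjusted p = 2.28e-09) and Tyk2, the kinase at the type I receptor, by 1.86 (adjusted p = 8.85e-09). Pan-leukocyte markers summed to between 66.6 and 990 CPM in tumour libraries, against 4.11 to 4.16 CPM in control cultures, and their part in these differences was not tested.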

How the data were processed

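The deposited files hold read counts per gene, 1 table for each of the 14 libraries, with 24411 gene symbols, 3 count columns (1 unstranded, 2 stranded) and 4 summary rows without a gene. Per the submitters' processing notes, the authors used Trimmomatic, STAR and the mouse build mm10; versions, options, annotation and kit were not given in the sources used here. The summary rows entered neither library sizes nor tests; unmapped reads were 4.00 to 11.5% and reads without a feature 12.1 to 24.0% of each library. The unstranded column was used, which does not separate overlapping or antisense genes. The counts carry no molecular identifiers, so precision from depth covers counting error only.

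Tests on the counts used edgeR 4.0.16 under R 4.3.3 (filterByExpr, TMM, glmQLFit with robust estimation, glmQLFTest, Benjamini-Hochberg, threshold 0.05) in the 6 culture libraries, the 8 tumour libraries, and all 14 libraries for tumour against culture. Printed levels are CPM scaled with TMM factors of all 14 libraries, with no count added; fold changes come from each fit, and SE from its F statistic. DESeq2 1.42.0 was an alternative. Fits were tested on simulated data. Members, lists and tests were chosen with earlier results of these data known. For each comparison, library values were given for the 6 largest positive and negative changes past the threshold, or for the 4 genes with the smallest p where fewer than 4 passed; of 118 other pathway genes, 3 per direction or 2 were named. Other members were named as examples. Replicate numbers were not taken to pair libraries, since no label says so and not every pair deviated together over the genes compared. In culture the interferon members did share an order, with replicate 1 mostly highest and replicate 2 mostly lowest in both groups. A fit with the number as a block is given below. No replicate pair agreed within sampling noise.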

Additional observations from a re-analysis of the deposited data

How the results depend on the processing

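With NET chromatin, 11 members were higher and 13 lower; library totals gave 5 higher, no filter on low counts 12 and 14, and leaving out 1 library gave 9 to 12 higher and 9 to 16 lower. Laparotomy in WT hosts had 0 lower with edgeR. It had 1 without the filter on low counts, against 99 of 19282 genes, and 11 with DESeq2, against 6.23%. The fit of all 14 libraries gave 10, against 847 of 14421 genes. Laparotomy in KO hosts had 1 lower, and 4 (126 of 19282 genes), 11 and 9 under the same alternatives. KO against WT control had 1 higher, 6 without the filter, 9 with DESeq2, 7 in the fit of all 14 libraries, 0 with the compared groups alone, and 0 to 5 with 1 library left out; the 5 were found without WT control replicate 1. KO against WT with laparotomy had 0 higher, and 2, 7, 7 and 1 under these alternatives. The difference between surgery effects had 0 calls, 1 lower without the filter, 2 higher and 3 lower both with DESeq2 and in the fit of all 14 libraries, and 0 to 1 lower with 1 library left out (Epsti1 without KO control replicate 2). The fit of all 14 libraries pools tumours with the less variable cultures. Causes of these differences were not tested. For DESeq2 the shares of all genes in the tumour comparisons stand above. For the remaining counts here no share of all genes is given, so they show only how the members' calls changed. No called member reversed its sign under any alternative that was run. Calls for tumour against culture stayed within 1.5 times of 18 higher and 10 lower.

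Adding the replicate number as a block gave 12 higher and 14 lower with NET chromatin and 0 higher for KO against WT control, where Irf1 had an adjusted p of 0.0503; the block changed no other count by over 1.5 times. Across 11646 genes, deviations of same-numbered libraries from their group means correlated at 0.108, 0.106 and -0.0442 in culture. There NET replicate 3 correlated best with control replicate 2. In tumours they correlated at 0.417 between KO and WT control and at -0.149 to 0.0948 between the other groups. The labels do not say that a number marks a shared animal or day. With 2 libraries per group, tumour comparisons are limited by spread between libraries more than by depth.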
